A study of Mus musculus with 24 samples.

Results

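The tubulin isotypes described here are 10 genes, the alpha tubulins Tuba1a, Tuba1b and Tuba4a and the beta tubulins Tubb2a, Tubb2b, Tubb3, Tubb4a, Tubb4b, Tubb5 and Tubb6, chosen by symbol from the 55254 genes listed in the count tables. All 10 were listed in both tables and all 10 passed the filter on low counts in both cell types. Nuclear RNA was sequenced from the hippocampus of male C57BL/6N mice aged 6 months, after nuclei were stained for NeuN, a protein of neuronal nuclei, and sorted into NeuN+ and NeuN- fractions. Wild type (WT) mice were compared with mice labelled Mutyh-/-, mice labelled Ogg1-/- and double knockouts (DKO) obtained by crossing both lines, so the DKO carries both deletions and the WT neither. Ogg1 and Mutyh are DNA glycosylases that act on oxidized guanine and on the adenine paired with it. Each genotype and fraction had 3 libraries, which gave 8 groups and 24 libraries. Nuclei were pooled from several animals of a genotype, and the study describes its data in general as independent biological replicates. For these RNA libraries no source used here says whether the 3 of a group came from separate pools, so the p-values below measure the spread between them, part of which may be technical.

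Alpha and beta tubulin bind as a dimer, and dimers add to the ends of microtubules, the hollow filaments that give axons and dendrites their shape and carry their transport. Mammals have several genes for each subunit. The proteins are nearly alike over most of their length and differ mainly in the acidic tail at the carboxyl end, which faces outward on the microtubule and is where motors, severing enzymes and modifying enzymes act. Tubb3 is widely used as a neuronal marker, Tubb4a is known as a beta tubulin of myelinating oligodendrocytes, and Tuba1a is the main alpha tubulin of young neurons.

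The isotypes differ in how far they can be told apart from their sequence, and the 3 alpha genes include the closest pair. Tuba1a lies on chromosome 15 (98949837 to 98953703, minus strand), Tuba1b on chromosome 15 (98931425 to 98934565, minus strand) and Tuba4a on chromosome 1 (75214228 to 75219865, minus strand), each with 4 exons. Tuba1a and Tuba1b differed at 23 positions over a coding sequence of 1356 bases (98.3% identity), whereas Tuba4a had 84.7% identity to Tuba1a.

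For the beta genes, the last 60 coding bases, which encode the tail and the stop codon, show where they part. They were read 5′ to 3′ from the GENCODE reference transcripts (GRCm38). Capitals mark the bases that differ from Tubb5, the most widely expressed of them, or are inserted relative to it in a pairwise alignment of the whole coding sequences, and bases missing from a gene are not marked, so the lines need not match column by column. Tubb5 lies on chromosome 17 (35833921 to 35838306, minus strand), Tubb4a on chromosome 17 (57080066 to 57087782, minus strand), Tubb2a on chromosome 13 (34074274 to 34078007, minus strand), Tubb2b on chromosome 13 (34126748 to 34130466, minus strand), Tubb4b on chromosome 2 (25222160 to 25224702, minus strand) and Tubb3 on chromosome 8 (123411424 to 123422015, plus strand).
Tubb5: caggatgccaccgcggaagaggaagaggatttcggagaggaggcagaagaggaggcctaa
Tubb2a: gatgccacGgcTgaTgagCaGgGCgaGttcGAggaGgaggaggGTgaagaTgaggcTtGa
Tubb2b: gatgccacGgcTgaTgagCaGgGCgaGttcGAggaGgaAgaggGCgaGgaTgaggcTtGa
Tubb4a: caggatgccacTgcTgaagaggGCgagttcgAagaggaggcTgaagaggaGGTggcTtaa
Tubb4b: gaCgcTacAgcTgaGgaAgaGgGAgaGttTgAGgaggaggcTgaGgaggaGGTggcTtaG
Tubb3: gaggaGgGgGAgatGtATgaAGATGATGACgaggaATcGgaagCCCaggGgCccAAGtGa
Tubb4a was the closest of these to Tubb5 in the tail, with 10 differing bases, and Tubb3 the farthest, with 29. Tubb2a and Tubb2b, which lie near each other on chromosome 13, had 96.5% identity over their coding sequence. Tubb3 and Tubb6, the pair with the next highest identity among the beta genes, had 86.0%.

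Such closeness decides how well reads can be assigned. Of all 100-base stretches of the Tuba1a transcript, the length of 1 read, 65.8% occur without a mismatch in the transcript of another gene on either strand, and for Tuba1b the share was 73.0%, in both cases most often in Tuba1c, another alpha tubulin gene. The share was 46.7% for Tuba4a (all in Stk16, which overlaps it on the opposite strand), 36.9% for Tubb2a and 27.7% for Tubb2b (mostly in each other) and 30.6% for Tubb4b (mostly in the pseudogene Tubb4b-ps1). It was 0% for Tubb3, Tubb4a, Tubb5 and Tubb6. In addition, the predicted gene Gm49450, annotated on the same strand, shares 26.2% of the exon bases of Tuba1a and 22.7% of those of Tuba1b. How the counting treated such reads and the strand is not given in the sources used here, so the counts of Tuba1a, Tuba1b, Tuba4a, Tubb2a, Tubb2b and Tubb4b are uncertain as to gene. No shared stretch was found for the other 4 beta genes. The search covered only exact matches of 1 transcript per gene to annotated transcripts, so it cannot show that their counts are free of such error.

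The libraries held between 56563586 and 96192142 counts each, with a median of 70434612. Levels are given as CPM, the counts of a gene over the scaled library total, after TMM scaling over all 24 libraries. The tubulin genes were well covered, from 121 to 248 counts per library for Tubb6 up to 2528 to 46647 for Tubb4a. The sort separated the cell types: all 8 neuronal markers tested were higher in WT NeuN+ nuclei and all 4 markers of mature oligodendrocytes reported here were higher in WT NeuN- nuclei. NeuN+ and NeuN- libraries ran on different sequencing lanes, so a lane effect and a cell type effect cannot be told apart. The targeted genes did not follow the labels at the level of gene counts. Mutyh RNA was higher, not lower, in the libraries labelled Mutyh-/- and DKO, with a mean of 10.9 and 9.94 CPM against 1.23 in WT NeuN+ nuclei (log2 fold change 3.15 and 2.99) and 9.44 and 7.97 against 2.60 in WT NeuN- nuclei. Ogg1 RNA in the libraries labelled Ogg1-/- was at 3.46 CPM against 3.30 in WT NeuN+ nuclei (log2 fold change 0.05, adjusted p = 0.916, edgeR quasi-likelihood test). Counts summed over a gene cannot show whether a deleted exon is missing, so every direction below is that of libraries as labelled.

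The first question was how the isotypes are divided between neuronal and non-neuronal nuclei in WT mice. Tubb4a stood far apart from the other isotypes. Its level was 54.9, 61.6 and 55.1 CPM in the WT NeuN+ libraries and 468, 445 and 389 CPM in the WT NeuN- libraries. The groups did not overlap, and the log2 fold change of NeuN+ against NeuN- was -2.92 (SE 0.168, adjusted p = 3.05e-13, edgeR quasi-likelihood test over 33523 genes). Tuba4a, an alpha isotype known from mature neurons and muscle, had the opposite pattern. It was at 39.3, 44.4 and 40.3 CPM in WT NeuN+ and 11.7, 12.4 and 12.3 CPM in WT NeuN-, a log2 fold change of 1.77 (SE 0.0949, adjusted p = 8.73e-14). Thus the alpha and the beta isotype with the largest differences lay on opposite sides of the sort.

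Tubb3 was at 20.6, 24.5 and 20.9 CPM in WT NeuN+ and 11.2, 11.5 and 12.9 CPM in WT NeuN-, so the neuronal marker was higher in neuronal nuclei (log2 fold change 0.89, SE 0.129, adjusted p = 1.90e-06) but present in both. Tubb2a was also higher in NeuN+ nuclei, by 0.80 on the log2 scale (adjusted p = 1.27e-07), and so was Tubb6 by 0.56 (adjusted p = 0.000407). Tubb5 and Tubb4b, the broadly expressed beta isotypes, were only slightly higher in NeuN+ (log2 fold change 0.30 and 0.24, adjusted p = 0.0213 and 0.0268), and these differences were 0.07 and 0.01 when libraries were scaled by their totals alone. Tuba1a was lower in NeuN+ than in NeuN- nuclei (log2 fold change -0.81, adjusted p = 1.28e-05), as was Tuba1b (-0.34, adjusted p = 0.0173). Tubb2b was at 30.97, 38.7 and 38.0 CPM in NeuN+ and 41.5, 38.5 and 42.4 CPM in NeuN-. Its groups overlapped and the log2 fold change of -0.19 did not pass the test (adjusted p = 0.0697, 95% interval -0.374 to 0.002), although its near twin Tubb2a did.

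In all, 9 of the 10 isotypes passed the test between cell types, as did 72.4% of all tested genes, so a call is not particular to tubulins. Of the 9, 6 were higher in NeuN+ (36.1% of all genes) and 3 were lower (36.3% of all genes). The median log2 fold change of the 10 was 0.269, against -0.014 over all genes tested. Scaling by library totals alone moved the median of all genes to -0.246 and that of the tubulins to 0.038, with the sign of each isotype kept.

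**Figure D1:**
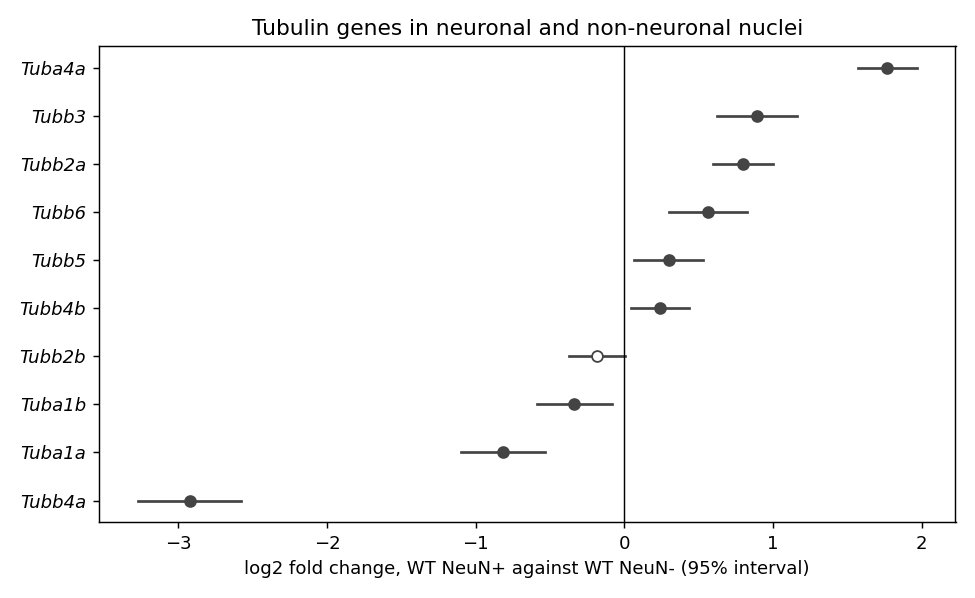
Log2 fold change of WT NeuN+ against WT NeuN- nuclei (x axis) for the 10 tubulin genes (y axis, ordered by value). Points are the estimates from 3 libraries per group, lines are 95% intervals, and the open point did not pass the test. Tuba4a lies farthest right at 1.77 and Tubb4a farthest left at -2.92.

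To set isotypes against each other, CPM was divided by the summed exon length in kilobases. Per kilobase, the order in WT NeuN+ nuclei was Tuba1a (43.7 ± 3.47 CPM per kb, SD, n = 3), Tubb2a (39.4 ± 4.33), Tuba1b (34.8 ± 1.95), Tubb4a (25.7), Tubb2b (15.6), Tubb3 (11.8), Tuba4a (11.2), Tubb4b (10.8), Tubb5 (8.27) and Tubb6 (1.14). The libraries of Tuba1a overlapped those of Tubb2a, those of Tubb2a overlapped those of Tuba1b, and Tubb3, Tuba4a and Tubb4b also overlapped their neighbours in this order, so those places are not resolved. In WT NeuN- nuclei Tubb4a came first at 195 ± 18.1 CPM per kb, ahead of Tuba1a (76.8), Tuba1b (44.0), Tubb2a (22.7), Tubb2b (17.8), Tubb4b (9.17), Tubb5 (6.72), Tubb3 (6.35), Tuba4a (3.28) and Tubb6 (0.771). Only Tubb5 and Tubb3 overlapped their neighbour there. Tubb6 was the least abundant isotype per kilobase in both fractions.

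Expressed as shares per kilobase, Tubb2a made up 34.9% of the beta tubulin RNA of WT NeuN+ nuclei, followed by Tubb4a with 22.8%, Tubb2b with 13.9% and Tubb3 with 10.5%. In WT NeuN- nuclei Tubb4a alone made up 75.3% ± 2.03 (SD, n = 3) and Tubb3 2.48%. Among the alpha genes, Tuba1a held 48.7% and Tuba4a 12.5% in NeuN+, and 61.9% and 2.65% in NeuN-. These shares depend on the length used: with coding length in place of exon length Tuba1a held 42.4% in WT NeuN+ nuclei and Tubb2a 27.4%. The ratio of summed alpha to summed beta RNA per kilobase was 0.796 ± 0.0205 in WT NeuN+ and 0.480 in WT NeuN- nuclei.

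**Figure D2:**
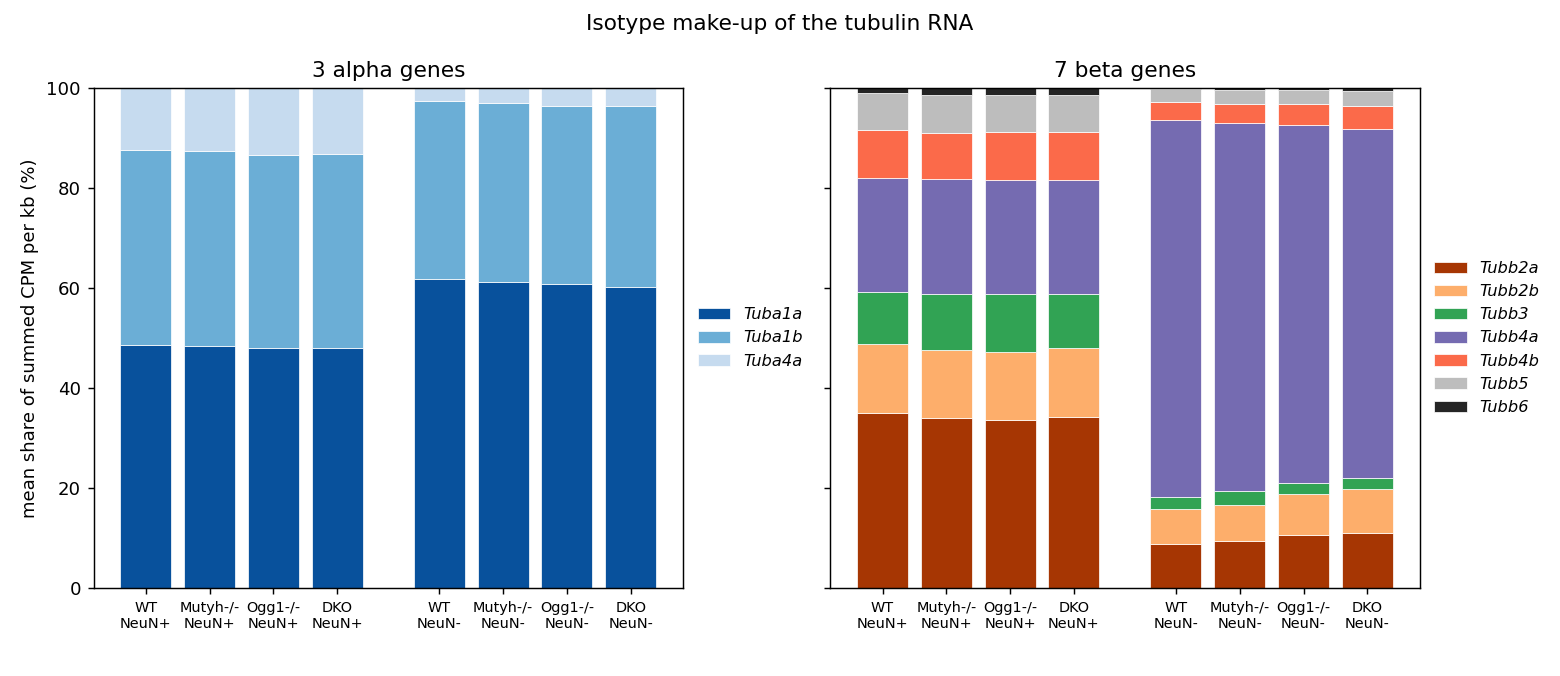
Mean share of each isotype in the summed CPM per kb of the 3 alpha genes (left) and the 7 beta genes (right), in percent, for the 8 groups of 3 libraries. Tubb2a is the largest beta share in NeuN+ nuclei and Tubb4a in NeuN- nuclei, where its mean is 75.3% in WT and 69.6% in DKO.

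The next question was whether the isotypes differed between each knockout and WT in neuronal nuclei. In NeuN+ nuclei, Tuba1a and Tuba1b fell in the libraries labelled Ogg1-/- and DKO, and Tubb2b fell in those labelled Ogg1-/-. Every isotype except Tubb6 had a log2 fold change below 0 in all 3 knockouts, against 51.9%, 47.8% and 50.1% of all genes in Mutyh-/-, Ogg1-/- and DKO. All 3 comparisons share the same WT libraries and are therefore not independent of one another.

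Tuba1a was at 72.2, 84.7 and 79.3 CPM in WT NeuN+, at 58.6, 53.4 and 49.4 CPM in Ogg1-/-, at 55.7, 59.98 and 48.3 CPM in DKO, and at 69.9, 63.2 and 50.7 CPM in Mutyh-/-. No knockout library reached the lowest WT library. Tuba1a was lower by 0.57 on the log2 scale in Ogg1-/- (log2 fold change -0.57, SE 0.109, adjusted p = 0.0234, edgeR quasi-likelihood test over 30132 genes) and by 0.54 in DKO (log2 fold change -0.54, SE 0.109, adjusted p = 0.0431). In Mutyh-/- the log2 fold change was -0.36 and did not pass the test (95% interval -0.588 to -0.123).

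Tuba1b, a broadly expressed alpha isotype, followed almost the same course. It was at 61.7, 69.0 and 65.3 CPM in WT, at 49.1, 44.6 and 41.0 CPM in Ogg1-/-, at 46.8, 49.8 and 41.2 CPM in DKO and at 59.8, 52.8 and 42.5 CPM in Mutyh-/-, again without overlap between any knockout and WT. The log2 fold change was -0.56 in Ogg1-/- (SE 0.107, adjusted p = 0.0234), -0.52 in DKO (SE 0.108, adjusted p = 0.0445) and -0.33 in Mutyh-/-, the last not past the test. Most 100-base stretches of both transcripts occur in other genes, and how such reads were counted is not given. The 2 alpha genes thus cannot be taken as independent measurements. Their overlapping neighbour Gm49450 passed the test in the same genotypes, with log2 fold changes of -0.51 in Ogg1-/- and -0.49 in DKO (adjusted p = 0.0254 and 0.0445). Tuba1c did not, at -0.51 and -0.48 (adjusted p = 0.0605 and 0.0957).

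Tubb2b, a beta isotype of the developing and adult brain, was at 30.97, 38.7 and 38.0 CPM in WT and at 28.5, 25.9 and 23.96 CPM in Ogg1-/-, where its log2 fold change was -0.48 (SE 0.108, adjusted p = 0.0491). The groups did not overlap, but the WT libraries spread more than the gap between the groups. In DKO it was at 28.0, 29.9 and 23.7 CPM (log2 fold change -0.42, adjusted p = 0.110). Tubb2a had log2 fold changes of nearly the same size, -0.49 in Ogg1-/- and -0.43 in DKO, without passing the test (adjusted p = 0.0556 and 0.116).

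The isotypes that follow did not pass the test in NeuN+ nuclei. Tuba4a, at 39.3, 44.4 and 40.3 CPM in WT, was at 33.5, 30.8 and 28.3 CPM in Ogg1-/- and at 32.1, 33.7 and 26.5 CPM in DKO, with log2 fold changes of -0.44 in both (adjusted p = 0.0533 and 0.0790). Tubb3 was at 20.6, 24.5 and 20.9 CPM in WT, at 19.98, 17.4 and 17.9 CPM in Ogg1-/- and at 18.1, 17.8 and 16.6 CPM in DKO. The WT and knockout libraries of Tubb3 were separated by less than 1 CPM in Ogg1-/-, and its log2 fold changes of -0.28 and -0.35 did not pass the test (adjusted p = 0.130 and 0.0839). Tubb4a, Tubb4b and Tubb5 had log2 fold changes of -0.43 each in Ogg1-/- and -0.40, -0.41 and -0.38 in DKO, none past the test.

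Tubb6 was the exception. This isotype, known from many tissues outside the brain, was at 2.79, 2.43 and 3.10 CPM in WT NeuN+, at 3.01, 3.14 and 2.82 CPM in Mutyh-/-, at 3.12, 2.70 and 3.04 CPM in Ogg1-/- and at 2.60, 3.25 and 3.10 CPM in DKO. All 3 knockouts overlapped WT, and the log2 fold changes were 0.11, 0.07 and 0.09 (adjusted p = 0.681, 0.880 and 0.794).

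In counts, 3 of 10 isotypes passed the test in Ogg1-/-, all lower, where 0.873% of all tested genes passed it as lower, and 2 of 10 passed it as lower in DKO, where 0.412% of all genes did. Tuba1a and Tuba1b were DEGs (adjusted p under 0.05 and absolute log2 fold change above 0.5) in both genotypes, where 0.392% and 0.246% of all genes were DEGs with lower levels. In Mutyh-/- 0 of 10 passed edgeR's quasi-likelihood test (0.222% of all genes passed it as lower), with 9 of 10 lower at an unadjusted p under 0.05, where 9.21% of all genes were. The likelihood ratio test of edgeR called 2 as lower, and 478 of all 30132 genes (1.59%). DESeq2 called 6 as lower, and 456 of the 20782 genes to which it gave an adjusted p (2.19%). At an unadjusted p under 0.05, 9 of 10 were also lower in Ogg1-/- and in DKO, against 7.33% and 7.51% of all genes. The WT libraries did not overlap the knockout libraries for 8 isotypes in Mutyh-/- (all but Tubb5 and Tubb6), 9 in Ogg1-/- and 9 in DKO, where 11.2%, 8.98% and 8.35% of all genes were lower without overlap. The median log2 fold change of the 10 was -0.339 in Mutyh-/-, -0.435 in Ogg1-/- and -0.414 in DKO, against -0.009, 0.009 and -0.001 over all genes tested. Across all 4 genotypes together, Tuba1a and Tuba1b passed the quasi-likelihood F test in NeuN+ nuclei (adjusted p = 0.0377 and 0.0393), where 1.06% of all genes did. In NeuN- nuclei 0 of 10 passed it, with a lowest adjusted p of 0.157 for Tuba1b, where 0.76% of all genes did.

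These calls rest on few libraries. Leaving out 1 library at a time, the number of isotypes called in Ogg1-/- was 0 without WT replicate 2, WT replicate 3, Ogg1-/- replicate 2 or Ogg1-/- replicate 3, 2 without Ogg1-/- replicate 1 and 3 without WT replicate 1, while in DKO it was 0 without any 1 of the 6 libraries. The directions of the 9 lower isotypes in NeuN+ nuclei did not change in any of these fits.

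**Figure D3:**
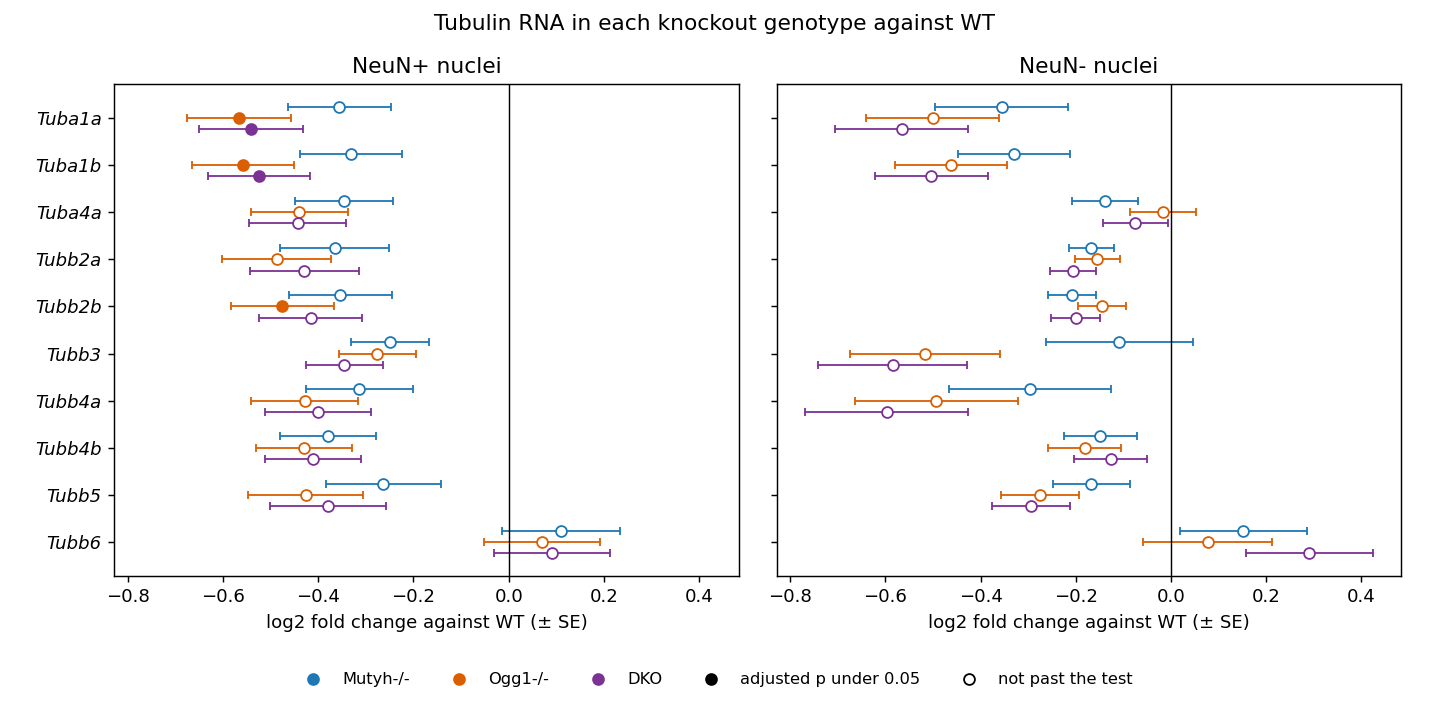
Log2 fold change against WT (x axis) with its standard error for the 10 tubulin genes in NeuN+ (left) and NeuN- nuclei (right), for libraries labelled Mutyh-/-, Ogg1-/- and DKO. Filled points passed the test. In NeuN+ nuclei 9 genes lie left of 0 in all 3 genotypes and Tubb6 lies right of it.

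In NeuN- nuclei 0 of 10 isotypes passed edgeR's quasi-likelihood test in any comparison with WT, where 0.132% of all genes passed it as lower in Mutyh-/-, 0.16% in Ogg1-/- and 0.11% in DKO. At an unadjusted p under 0.05, 4 isotypes were lower in Mutyh-/-, 8 in Ogg1-/- and 7 in DKO, against 6.9%, 6.08% and 6.31% of all genes. DESeq2 called 1, 2 and 6 isotypes, all lower, against 1.24%, 1.21% and 1.38% of the genes to which it gave an adjusted p (20739, 20739 and 22592). The likelihood ratio test called 0, 1 and 2, against 0.53%, 0.54% and 0.59% of all 31863 genes. The medians of the 10 were -0.167, -0.228 and -0.25 on the log2 scale, against -0.005, 0.001 and 0.007 over all genes. In each comparison 9 of 10 lay below 0, against 51.2%, 49.8% and 48.5% of all genes. Libraries did not overlap WT for 4 lower isotypes in Mutyh-/-, 8 in Ogg1-/- and 9 in DKO, where 9.49%, 9.84% and 8.4% of all genes were lower without overlap.

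Tubb4a, the leading isotype of these nuclei, was at 468, 445 and 389 CPM in WT, at 366, 409 and 290.5 CPM in Mutyh-/-, at 328, 307 and 296 CPM in Ogg1-/- and at 330, 336 and 199 CPM in DKO. Ogg1-/- and DKO did not overlap WT, Mutyh-/- did, and DKO replicate 3 was the lowest library. The log2 fold changes were -0.49 in Ogg1-/- (95% interval -0.865 to -0.120, adjusted p = 0.277) and -0.60 in DKO (95% interval -0.970 to -0.224, adjusted p = 0.220), and without DKO replicate 3 the latter was -0.39. In bulk libraries fewer cells of a type and less RNA per cell cannot be told apart. The summed level of 4 markers of mature oligodendrocytes (Mbp, Mog, Mag and Mobp), which are not the whole marker list, ranged from 3356 to 3594 CPM in WT NeuN- libraries. Its range was 3351 to 3972 CPM in Mutyh-/-, 3103 to 3440 CPM in Ogg1-/- and 2903 to 3408 CPM in DKO, so every genotype overlapped WT. The mean was higher than in WT (3475 CPM) in Mutyh-/- (3744 CPM) and lower in Ogg1-/- (3230 CPM) and DKO (3200 CPM). None of the 4 was called by DESeq2 or by either edgeR test, with 0, 1 and 1 at an unadjusted p under 0.05 in Mutyh-/-, Ogg1-/- and DKO. Their log2 fold changes ran from -0.099 to 0.241 in Mutyh-/-, from -0.244 to -0.057 in Ogg1-/- and from -0.252 to -0.101 in DKO. Cnp is a myelin gene outside that list, named because its profile over these same 24 libraries was the most similar to that of Tubb4a. Its likeness to Tubb4a is thus partly fixed by that choice and is not a separate measure of myelin genes. It ranged from 323 to 378 CPM in WT NeuN- libraries and lay below that range in all knockouts (228 to 300.4 CPM in Mutyh-/-, 229 to 267 CPM in Ogg1-/- and 191 to 273.5 CPM in DKO). Its log2 fold changes of -0.38, -0.51 and -0.53 did not pass the quasi-likelihood test (adjusted p = 0.247, 0.160 and 0.169). The astrocyte list lay on the other side of WT in the same libraries. All 6 of its genes had log2 fold changes above 0 in Ogg1-/- (0.162 to 0.52) and in DKO (0.131 to 0.513), 4 of them in each at an unadjusted p under 0.05, and Aldh1l1 passed the test in Ogg1-/- (log2 fold change 0.52, adjusted p = 0.0483), a gene named after its value was seen. Their summed level was 2789 to 3314 CPM in WT, 3468 to 3628 CPM in DKO, without overlap, and 3247 to 4112 CPM in Ogg1-/-, with overlap. DKO replicate 3 also stood apart in its choroid plexus markers, at 213 CPM in sum against 7.15 and 61.8 CPM in the other DKO libraries and 33.2 to 60.1 CPM in WT, and in its endothelial markers, at 28.2 CPM against 19.1 to 21.2 CPM in WT. The part of these cell types in the Tubb4a values was not tested.

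Tuba1a in NeuN- nuclei was at 147, 141 and 127 CPM in WT, at 112, 126 and 88.9 CPM in Mutyh-/-, at 101, 96.9 and 97.4 CPM in Ogg1-/- and at 105, 104 and 72.0 CPM in DKO. Its log2 fold changes were -0.36, -0.50 and -0.57, against -0.36, -0.57 and -0.54 in NeuN+ nuclei, and none passed the test (adjusted p = 0.292, 0.190 and 0.169). Tuba1b had -0.33, -0.46 and -0.50. Tubb3 was at 11.2, 11.5 and 12.9 CPM in WT, at 10.8, 13.3 and 9.16 CPM in Mutyh-/-, at 9.44, 8.28 and 7.27 CPM in Ogg1-/- and at 9.79, 6.55 and 7.41 CPM in DKO. Mutyh-/- libraries of Tubb3 lay on both sides of WT, and the log2 fold changes of -0.52 in Ogg1-/- and -0.58 in DKO did not pass the test (adjusted p = 0.220 and 0.194). The summed level of the 8 neuronal markers in these NeuN- libraries was 470 to 560 CPM in WT, 455 to 493 CPM in Mutyh-/-, 399 to 480 CPM in Ogg1-/- and 392 to 473 CPM in DKO. Of the 8, 0 passed the quasi-likelihood test in any genotype, with 4, 5 and 6 at an unadjusted p under 0.05, 1, 1 and 3 called by DESeq2 and 1, 1 and 2 by the likelihood ratio test, and their part in the Tubb3 values was not tested.

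The remaining isotypes had smaller values in NeuN- nuclei. Tubb2a was at 37.1, 35.01 and 37.4 CPM in WT and at 32.2, 31.9 and 31.3 CPM in DKO, a narrow and non-overlapping difference of -0.21 on the log2 scale (SE 0.0478, adjusted p = 0.139). Tubb2b had -0.20 in DKO, Tubb5 -0.29, Tubb4b -0.13 and Tuba4a -0.07. Tuba4a was at 11.7, 12.4 and 12.3 CPM in WT, 12.6, 12.4 and 11.1 CPM in Ogg1-/- and 11.3, 11.7 and 11.7 CPM in DKO, and its 95% interval in Ogg1-/- was -0.166 to 0.133. Tubb6 was at 1.89, 1.96 and 1.78 CPM in WT and at 2.07, 2.24 and 2.63 CPM in DKO, the only isotype whose DKO libraries all lay above WT, with a log2 fold change of 0.29 that did not pass the test (95% interval 0 to 0.582, adjusted p = 0.404). Of all genes, 8.44% were higher without overlap in that comparison.

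**Figure D4:**
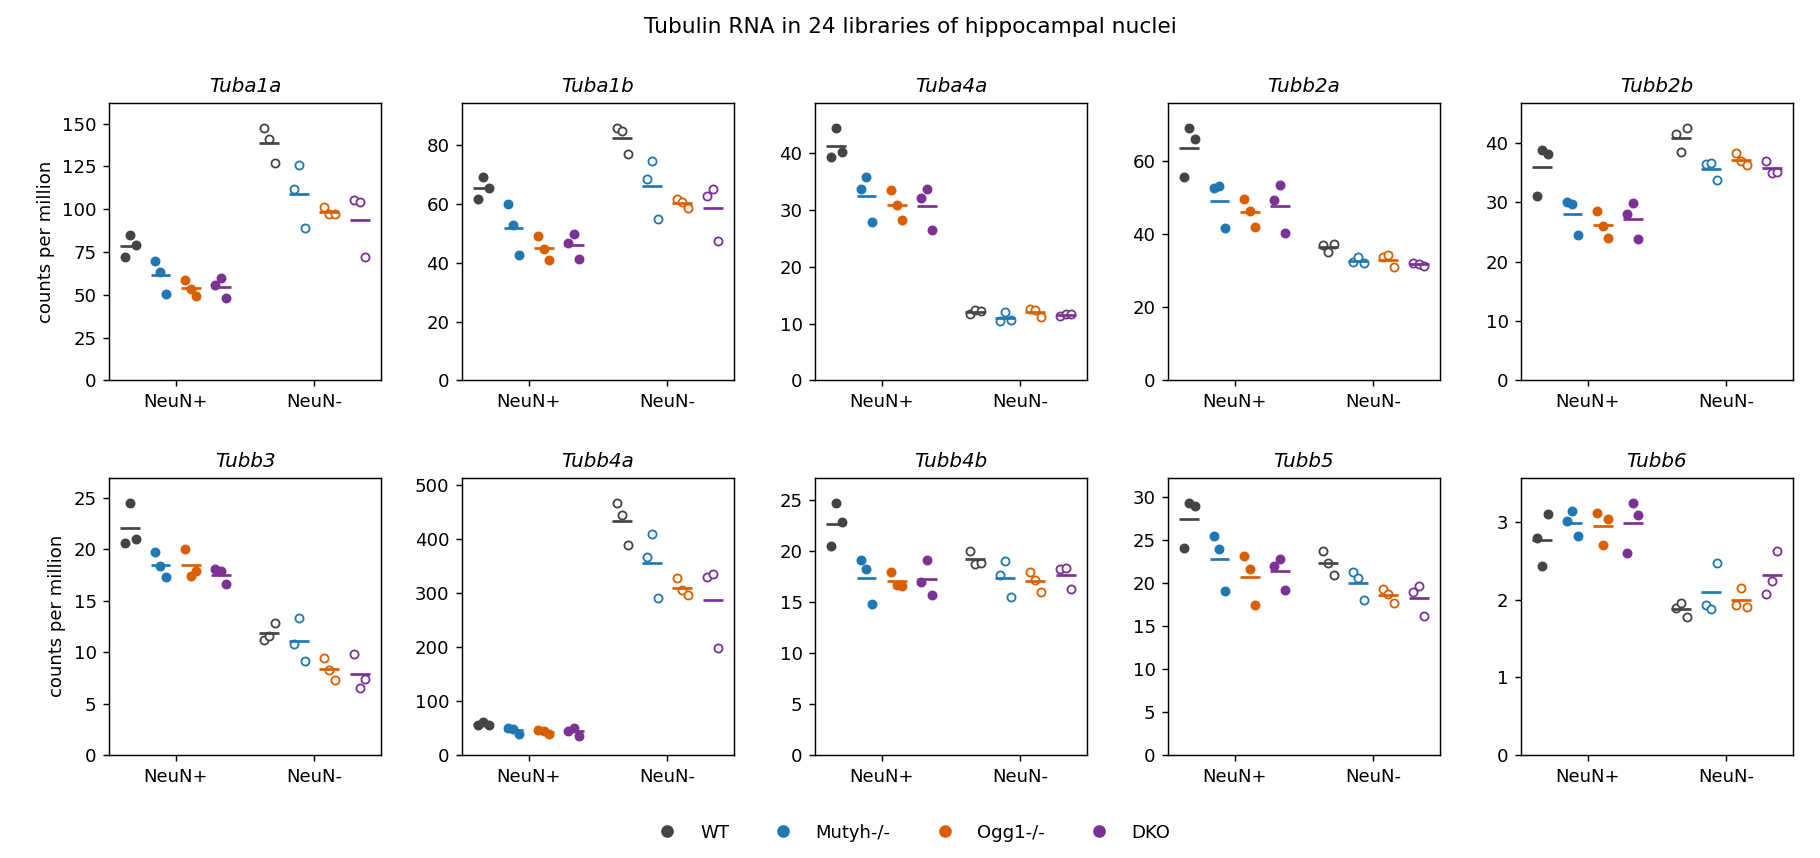
CPM (y axis, from 0) of each tubulin gene in the 24 libraries, 1 panel per gene, with filled points for NeuN+ and open points for NeuN- nuclei and a bar at each mean of 3 libraries. WT points lie above most knockout points for 9 genes in NeuN+ nuclei, and Tubb4a is several times higher in NeuN- than in NeuN+ nuclei.

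The genotype effect was then compared between the fractions in a fit of all 24 libraries. None of the 10 isotypes passed the test of the difference, whether by quasi-likelihood, by likelihood ratio or by DESeq2, where 0.0209% (Mutyh-/-), 0.0537% (Ogg1-/-) and 0.0567% (DKO) of all genes passed the first of these. At an unadjusted p under 0.05 there were 0, 3 and 1 isotypes, against 8.58%, 7.09% and 9.4% of all genes. Tuba4a had the largest value, -0.42 in Ogg1-/- (95% interval -0.689 to -0.141, adjusted p = 0.4999) and -0.36 in DKO (95% interval -0.633 to -0.085, adjusted p = 0.389). For Tuba1a the difference between fractions was -0.06 in Ogg1-/- (95% interval -0.454 to 0.340) and 0.03 in DKO (95% interval -0.364 to 0.431), so a difference of either sign of that size is not resolved. This fit takes the fractions as unpaired, since no label says that same-numbered libraries came from 1 sort. Calls in NeuN+ and none in NeuN- nuclei are thus not shown to differ by cell type.

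Between the knockouts, 0 of 10 isotypes passed in any of the 6 comparisons, whether by quasi-likelihood, by likelihood ratio or by DESeq2, where the first of these called 0.163% of all genes for DKO against Mutyh-/-, 0.252% for DKO against Ogg1-/- and 0.654% for Ogg1-/- against Mutyh-/- in NeuN+ nuclei, and 0.148%, 0.157% and 0.788% in NeuN- nuclei. The only isotype at an unadjusted p under 0.05 was Tubb3 in NeuN- nuclei, with log2 fold changes of -0.48 for DKO against Mutyh-/- (adjusted p = 0.326) and -0.41 for Ogg1-/- against Mutyh-/- (adjusted p = 0.332). Its libraries overlapped in both, and 5.21% and 5.56% of all genes were lower at that level. For Tuba1a in NeuN+ nuclei the DKO differed from Ogg1-/- by 0.03 (95% interval -0.207 to 0.258) and from Mutyh-/- by -0.19 (95% interval -0.419 to 0.047). The median over the 10 isotypes in NeuN+ nuclei was -0.092 for DKO against Mutyh-/-, 0.027 for DKO against Ogg1-/- and -0.118 for Ogg1-/- against Mutyh-/-.

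Within most groups, though not all, many isotypes were lowest in the same library. In NeuN+ nuclei Mutyh-/- replicate 3 was the lowest of its group for 10 of 10 isotypes, DKO replicate 3 for 9, Ogg1-/- replicate 3 for 8 and WT replicate 1 for 9, and WT replicate 2 was the highest of its group for 9. In NeuN- nuclei Ogg1-/- replicate 3 was the lowest for 9, Mutyh-/- replicate 3 for 8 and DKO replicate 3 for 6. The last was also the highest of its group for 2. In WT NeuN- nuclei replicates 1, 2 and 3 were the lowest for 2, 3 and 5 isotypes. How many of all genes were lowest in the same libraries was not counted, so this is not shown to be particular to tubulins. The summed CPM of the 10 isotypes ranged from 383 to 448 in WT NeuN+ libraries, and no knockout library reached that range (281 to 363 for Mutyh-/-, 278 to 330 for Ogg1-/- and 271 to 340 for DKO). In NeuN- libraries the WT range of 740 to 848 overlapped that of Mutyh-/- (556 to 747) but not those of Ogg1-/- (573 to 624) and DKO (439 to 631).

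Genes for ribosomal proteins, another abundant class of messenger RNA, were also lower in the knockout libraries. Their summed level was 1074 to 1092 CPM in WT NeuN+ nuclei, 953.5 to 1069 CPM in Mutyh-/-, 846 to 978 CPM in Ogg1-/- and 864 to 1010.1 CPM in DKO. Of the 87 tested, 75, 84 and 85 lay below 0 in the 3 genotypes, against 51.9%, 47.8% and 50.1% of all genes. In Ogg1-/- 10 passed the quasi-likelihood test as lower (0.873% of all genes did), and 0 in the other genotypes. There 22 (Mutyh-/-) and 54 (DKO) were lower at an unadjusted p under 0.05, against 9.21% and 7.51% of all genes. DESeq2 called 1 and 21 of these as lower and the likelihood ratio test 1 and 15. Their medians were -0.177, -0.341 and -0.281 on the log2 scale. In NeuN- nuclei 78, 83 and 85 of the 87 lay below 0 (51.2%, 49.8% and 48.5% of all genes did), with medians of -0.122, -0.206 and -0.187. Every knockout library had a lower sum (965 to 1149 CPM) than the WT libraries (1161 to 1185 CPM). Of the 87, 0 passed the quasi-likelihood test in NeuN- nuclei. At an unadjusted p under 0.05, 13, 37 and 38 were lower, against 6.9%, 6.08% and 6.31% of all genes. DESeq2 called 1, 8 and 3 as lower and the likelihood ratio test 0, 3 and 1. Their part in the tubulin values was not tested.

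**Figure D5:**
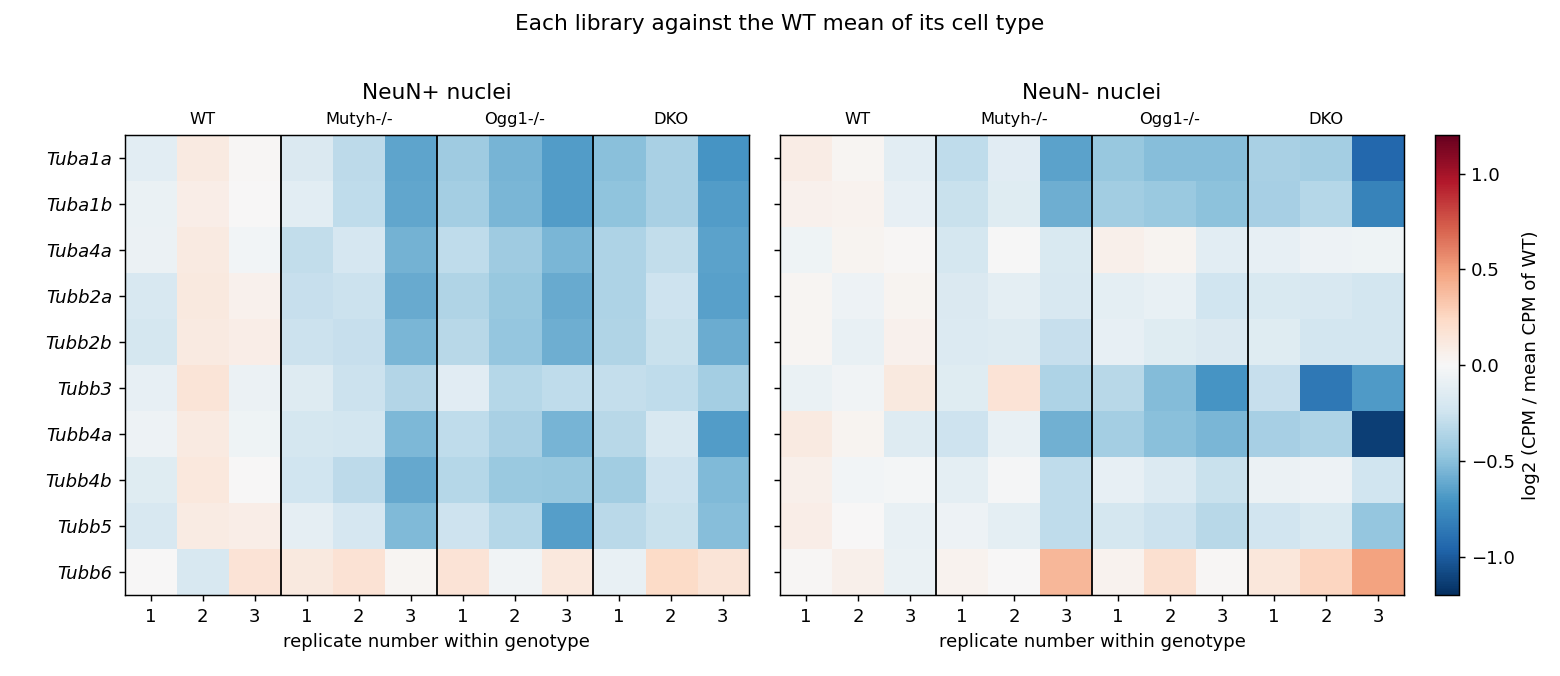
Log2 of the CPM of each library over the WT mean of its cell type (colour scale), for the 10 tubulin genes (rows) in the 12 NeuN+ (left) and 12 NeuN- libraries (right). Replicate 3 of each knockout is the darkest blue column of its group for most genes in NeuN+ nuclei, and Tubb6 is near 0 or red.

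In the isotype make-up of NeuN+ nuclei, Tuba1a held 48.0% to 48.3% of the alpha RNA in the 3 knockouts against 48.7% in WT, and Tubb2a 33.7% to 34.2% of the beta RNA against 34.9%. Some other shares were higher than in WT. Tuba4a made up 12.1% to 12.7% of the alpha RNA in WT libraries, 13.35% to 13.5% in Ogg1-/- and 12.8% to 13.4% in DKO, without overlap, and Tubb3 9.80% to 10.8% of the beta RNA in WT and 11.01% to 12.3% in Ogg1-/-, also without overlap. Tubb6 held 0.817% to 1.12% in WT and more in every knockout library, with means of 1.38%, 1.44% and 1.43% in Mutyh-/-, Ogg1-/- and DKO. In NeuN- nuclei the mean share of Tubb4a was 75.3% in WT (73.0% to 76.6%), 73.5% in Mutyh-/-, 71.4% in Ogg1-/- (70.9% to 71.8%) and 69.6% in DKO (63.0% to 73.6%), and that of Tubb2a was 8.81%, 9.49%, 10.5% and 11.1%. The Ogg1-/- libraries did not overlap WT in the share of Tubb4a, whereas DKO did. Tubb6 made up 0.299% of the beta RNA in WT and 0.541% in DKO. The ratio of alpha to beta RNA in NeuN+ nuclei was 0.796 ± 0.0205 in WT, 0.783 in Mutyh-/-, 0.734 ± 0.00537 in Ogg1-/- and 0.732 in DKO (SD, n = 3). No test was run on these shares and ratios, and the limits given above for the sums and for read assignment hold for them.

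For each isotype the gene with the most similar profile was sought over the 24 libraries, as the smallest root mean square difference of centred log2 CPM among 33523 genes. Tuba1b was closest to Tuba1c (0.0436), with which it shares sequence, and Tuba1a to the predicted gene Gm17383 (0.0944), which also shares 100-base stretches with it. Tubb4a was closest to Cnp (0.160), which encodes a myelin enzyme of oligodendrocytes, and Tuba4a to Rab3a (0.0947), which encodes a GTPase of synaptic vesicles. Tubb2a was closest to Rpl15 (0.0855), Tubb2b to Sqstm1 (0.0837), Tubb4b to Ppp2r1a (0.0725), Tubb5 to Atp5b (0.0714), Tubb6 to Slc45a4 (0.115) and Tubb3 to Gm18194 (0.174). Among the isotypes themselves the most alike were Tubb4b and Tubb5 (0.120) and the least alike Tuba4a and Tubb4a (2.20). The difference between cell types enters every one of these distances, since both fractions are among the 24 libraries.

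Other genes of the microtubule system were read from lists of 124 genes. Of the other alpha tubulins, Tuba8 was at 2.87 CPM in WT NeuN+ and 0.419 in WT NeuN- nuclei (log2 fold change 2.77, adjusted p = 3.23e-13), Tuba1c was at 21.3 and 28.0 CPM, and neither passed the quasi-likelihood test against WT in any knockout, although both DESeq2 and the likelihood ratio test called 1 of the list as lower in Ogg1-/- and in DKO in each fraction. Among 22 genes for tubulin folding, which form the CCT chaperonin, prefoldin and the tubulin cofactors, Cct2 fell in Ogg1-/- NeuN+ nuclei (log2 fold change -0.35, SE 0.0758, adjusted p = 0.0397) and no other passed the test in any comparison with WT, with 2, 9 and 6 lower at an unadjusted p under 0.05 in Mutyh-/-, Ogg1-/- and DKO NeuN+ nuclei. Of the 12 stathmins and severing enzymes, which take up tubulin dimers or cut microtubules, Stmn1 fell in DKO NeuN+ nuclei (-0.45, SE 0.0889, adjusted p = 0.0394) and Stmn3 in DKO NeuN- nuclei (-0.34, SE 0.0528, adjusted p = 0.0230). Of 27 tested enzymes that modify tubulin, Ttll3, a glycine ligase, rose in Ogg1-/- NeuN- nuclei (0.38, SE 0.0693, adjusted p = 0.0392). Where Ttll3 lies relative to the targeted genes was not examined, and the part of its position in this value was not tested. In no comparison with WT did the quasi-likelihood test call any of the 32 structural and tip microtubule-associated proteins, of the 12 gamma, delta and epsilon tubulin and ring complex genes or the 12 genes of tubulin messenger autoregulation. In these 3 lists the number at an unadjusted p under 0.05 in NeuN+ nuclei was 6, 2 and 2 in Mutyh-/-, 7, 2 and 0 in Ogg1-/- and 8, 1 and 0 in DKO. Of the first list, 3 were lower and 3 higher in Mutyh-/-, 7 and 0 in Ogg1-/- and 5 and 3 in DKO. Of the second list, 1 was lower and 1 higher in Mutyh-/-, 2 were lower in Ogg1-/- and 1 was lower in DKO. The 2 of the third list in Mutyh-/- were higher. Of all genes in NeuN+ nuclei, 9.21%, 7.33% and 7.51% were lower at that level, shares that go with the lower counts only. DESeq2 and the likelihood ratio test each called 1 of the first list as higher in Mutyh-/-, 2 as lower in Ogg1-/- and 1 as lower in DKO in NeuN+ nuclei, and 0 of the other 2 lists. In NeuN- nuclei the numbers at an unadjusted p under 0.05 were 10, 1 and 5 in Mutyh-/-, 11, 1 and 0 in Ogg1-/- and 9, 1 and 1 in DKO. Of the first list, 4 were lower and 6 higher in Mutyh-/-, 10 and 1 in Ogg1-/- and 9 and 0 in DKO. Those of the second list were higher in each genotype. Of the third list, 2 were lower and 3 higher in Mutyh-/- and 1 was lower in DKO. Of all genes in NeuN- nuclei, 6.9%, 6.08% and 6.31% were lower at that level, again shares for the lower counts only. Both other tools called 2 of the first list as lower in DKO NeuN- nuclei, and in Mutyh-/- DESeq2 called 2 of the first list and 1 of the second as higher. Their median log2 fold changes in NeuN+ nuclei lay between -0.088 and 0.004, closer to 0 than the tubulin median of each genotype.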

How the data were processed

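Read pairs were sequenced from SMARTer Stranded Total RNA-Seq libraries of sorted hippocampal nuclei. The deposited values are raw counts per gene, made by the authors with HISAT2 2.1.0, SAMtools 1.10 and featureCounts on GRCm38. Strand, overlap and multiple-alignment settings are not given in the sources used here. Groups were taken from the genotype and cell type labels, and 0 columns were left unmapped.

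Counts were filtered with edgeR's filterByExpr (30132 genes kept in NeuN+, 31863 in NeuN-, 33523 in the fit of all 24 libraries), scaled by TMM, and tested in R 4.3.3 with edgeR 4.0.16 (quasi-likelihood test, Benjamini-Hochberg adjustment over all tested genes, threshold 0.05) with all 4 genotypes of a fraction in 1 fit. The spread between libraries, as the square root of edgeR's common dispersion, came to 0.0823 (NeuN+) and 0.124 (NeuN-). Log2 CPM used a prior count of 2. The scripts were tested on simulated counts. Alternatives were DESeq2 1.42.0, edgeR's likelihood ratio test, other scalings and filters, a replicate block and the omission of each library. Lengths, positions and sequences came from the GENCODE vM21 annotation and transcripts (GRCm38). All 10 isotypes entered every comparison and were named in each cell type and between them, though not each in every genotype, and otherwise given by counts, medians and the most different members. The nearest gene of each was named and, from the other lists, genes past the test against WT. The alpha tubulin sequences and 1 gene of the oligodendrocyte marker list are not reported here, and the summed marker levels and counts leave that gene out. The members and lists were chosen with earlier results of these data known.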

Additional observations from a re-analysis of the deposited data

How the results depend on the processing

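Which isotypes were called depended on the test and the libraries, while no isotype's sign against WT changed under any other test, scaling, filter, block or fit of the compared genotypes only. Against WT, the isotypes called (all lower) in NeuN+ nuclei of Mutyh-/-, Ogg1-/- and DKO numbered 2, 8 and 8 by the likelihood ratio test, 6, 9 and 8 by DESeq2 and 7, 8 and 9 with no filter on low counts, in place of 0, 3 and 2. In NeuN+ Mutyh-/-, Ogg1-/- and DKO, 0, 6 and 3 were called with library totals alone (0.823%, 1.43% and 0.806% of all genes were). With only the compared genotypes in the fit the numbers were 0, 8 and 3 (1.36%, 2.87% and 0.823%). In NeuN- nuclei, in place of 0, the likelihood ratio test called 1 in Ogg1-/- (1.16% of all genes were called) and 2 in DKO (0.948%). DESeq2 called 1 in Mutyh-/- (2.89%), 2 in Ogg1-/- (2.83%) and 6 in DKO (2.06%). Library totals alone gave 1 in Mutyh-/- (0.326%), and the fit of the compared genotypes only gave 4 in Ogg1-/- (1.17%). As reported, 0.32%, 0.342% and 0.179% of all genes were called in NeuN- Mutyh-/-, Ogg1-/- and DKO. The shares of genes called in NeuN+ Mutyh-/-, Ogg1-/- and DKO were 0.641%, 1.1% and 0.494% as reported, 3.78%, 2.43% and 1.87% by the likelihood ratio test, 5.9%, 4.01% and 3.56% by DESeq2 and 3.05%, 1.43% and 1.2% with no filter, and the cause was not tested. Every DESeq2 share is of only those genes to which it gave an adjusted p, such as 20782 in NeuN+ Mutyh-/- in place of 30132.

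With the replicate number as a block, 7 isotypes were called in NeuN+ Ogg1-/- (1.67% of all genes were), 4 in NeuN+ DKO (1.12%), 1 in NeuN- Ogg1-/- (0.383%) and 2 in NeuN- DKO (0.292%), and a block that pairs the fractions called 0 for the difference between them. The labels do not say that a number marks shared animals. Same-numbered libraries of a fraction deviated together at a mean correlation of 0.0191 (6 of 36 pairs over 0.1). The deviations of same-numbered libraries of a genotype in the other fraction correlated at 0.111 on average (0.0107 to 0.292), with 22 of 24 libraries correlating best with their own number. These 24 outcomes are not independent, since each pair enters from both sides and deviations are from means of 3 libraries. They are a hint from the data only.

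Leaving out 1 library at a time, which leaves fewer samples, gave 0 to 3 calls in NeuN+ Ogg1-/-, 0 in NeuN+ DKO, 0 to 1 for Ogg1-/- against Mutyh-/- in NeuN+ (1 without Mutyh-/- replicate 3) and 7 to 8 between cell types. Signs changed for Tuba4a in NeuN- Ogg1-/- (-0.0482 to 0.0342, above 0 at 0.0094 without WT replicate 2 and at 0.0342 without Ogg1-/- replicate 3), Tubb3 in NeuN- Mutyh-/- (-0.2605 to 0.0104) and Tubb6 in NeuN+ Ogg1-/- (-0.0171 to 0.163), all far from the threshold. Upper-quartile scaling took Tubb2b in NeuN+ Ogg1-/- (adjusted p = 0.0532, edgeR) and Tuba1b between cell types (adjusted p = 0.0963) above the threshold.

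With coding length or longest transcript in place of summed exons, Tuba1a held 42.37% or 45.6% of the alpha RNA in WT NeuN+ and 59.37% or 59.8% in WT NeuN- nuclei, and Tubb2a 27.4% or 32.97% of the beta RNA in WT NeuN+. Depth was lowest for Tubb6, with 121 to 248 counts per library.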
